A study of Arabidopsis thaliana with 2 samples.

Results

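Transcript levels of 10 genes of plant cytokinesis and the mitotic spindle were examined in developing Arabidopsis thaliana seeds. They are KN (KNOLLE), KEULE, HIK, TES, MAP65-3, PAKRP1, AUR1, AUR2, AUR3 and MYB3R4, picked by gene identifier out of 33602 gene models. All 10 were found in both deposited tables, and all 10 had a mean of at least 1 FPKM (fragments counted per kilobase of the model, scaled to library size), as did 17816 models in all. Seeds were labelled 10 DAP in both genotypes. One genotype carried the soybean phytosulfokine precursor gene GmPSKγ1. The other, taken here as the control, carried a construct labelled GmPSKγ1tc, whose meaning is not given in the sources used here. Both were behind a promoter labelled OLEOp. Each genotype is 1 library made from the pooled RNA of 3 lines, so no spread between lines can be given and no test between genotypes was possible.

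Plant cells divide by building a new wall from the inside outwards. After the spindle has separated the chromosomes, a microtubule scaffold called the phragmoplast guides vesicles to the division plane, where they fuse into a cell plate. KN is the syntaxin that drives this fusion, and KEULE is a Sec1/Munc18-type protein that binds it. HIK and TES are kinesins that activate a MAP kinase cascade which lets the phragmoplast expand. MAP65-3 crosslinks microtubules in the phragmoplast midzone, and PAKRP1 is a kinesin of the same zone. AUR1 and AUR2 are Aurora kinases of the spindle and the forming cell plate, and AUR3 is an Aurora kinase of the centromeres. MYB3R4 is a transcription factor that activates genes of late G2 and mitosis, KN among them. Many of its targets carry the mitosis-specific activator element, whose core is AACGG.

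The core AACGG was searched on both strands in the 300 bases before the annotated transcript start of each gene (RefSeq, assembly TAIR10.1, the transcript with the lowest accession number). It was present in 8 of the 10 promoters, in 40.7% of the promoters of 59 other division genes described further on, and in 23.8% of 26712 promoters of protein-coding genes. The promoters of KEULE and AUR3 held no AACGG in this window. Those of HIK, TES, MAP65-3 and PAKRP1 each held 2 copies, as did 4.58% of all promoters (2 or more). A match describes letters and does not show that a protein binds there. The sites are given because they are a sequence feature most of these genes share. Each is written 5′ to 3′ on the strand that reads AACGG, in capitals, with up to 12 bases on either side that lie inside the window.
KN, chr1:2711001-2711024: caaatggacgacAACGGatacatc
HIK, chr1:6324379-6324401: acctctAACGGctagttctttcc
HIK, chr1:6324656-6324678: cccttaacacaaAACGGtcattt
TES, chr3:15190733-15190761: aatgccaaccaaAACGGgtttattggtac
TES, chr3:15190577-15190605: cgtctgaggcacAACGGtcatatgcaaac
MAP65-3, chr5:20964620-20964648: taagaatatctcAACGGtagggatctatt
MAP65-3, chr5:20964646-20964674: ttattccctatgAACGGttcagatctcaa
PAKRP1, chr4:8165290-8165318: taggatgaatccAACGGagggaatgagca
PAKRP1, chr4:8165463-8165491: gccatgcttcgtAACGGgtcaaaagtttt
AUR1, chr4:15842352-15842380: ggggcaaaaaatAACGGtcgaatttttag
AUR2, chr2:11036956-11036984: cagcaaagcagcAACGGtcgaatccagat
MYB3R4, chr5:3679653-3679681: tttttagtatttAACGGacataattattt

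The printed strand was minus for KN, both TES sites, the MAP65-3 site at chr5:20964620-20964648, the PAKRP1 site at chr4:8165463-8165491, AUR1 and MYB3R4, and plus for the others. The longer string CNAACGG, which contains the shorter core, was likewise searched on both strands and found in the promoters of HIK and PAKRP1, against 5.28% of all promoters. The sites nearest the start began 11 bases before it in HIK, 12 in KN, 26 in AUR2, 79 in AUR1, 83 in MYB3R4, 92 in PAKRP1, 99 in MAP65-3 and 114 in TES. The pair of sites in MAP65-3 pointed away from each other within 130 bases of the start, shown on the strand of the gene (chr5:20964538-20964667, minus strand), with the core and its reverse complement CCGTT in capitals.
MAP65-3: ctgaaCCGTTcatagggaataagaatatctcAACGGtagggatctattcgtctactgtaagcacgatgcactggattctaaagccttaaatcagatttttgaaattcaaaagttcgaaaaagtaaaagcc

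**Figure D1:**
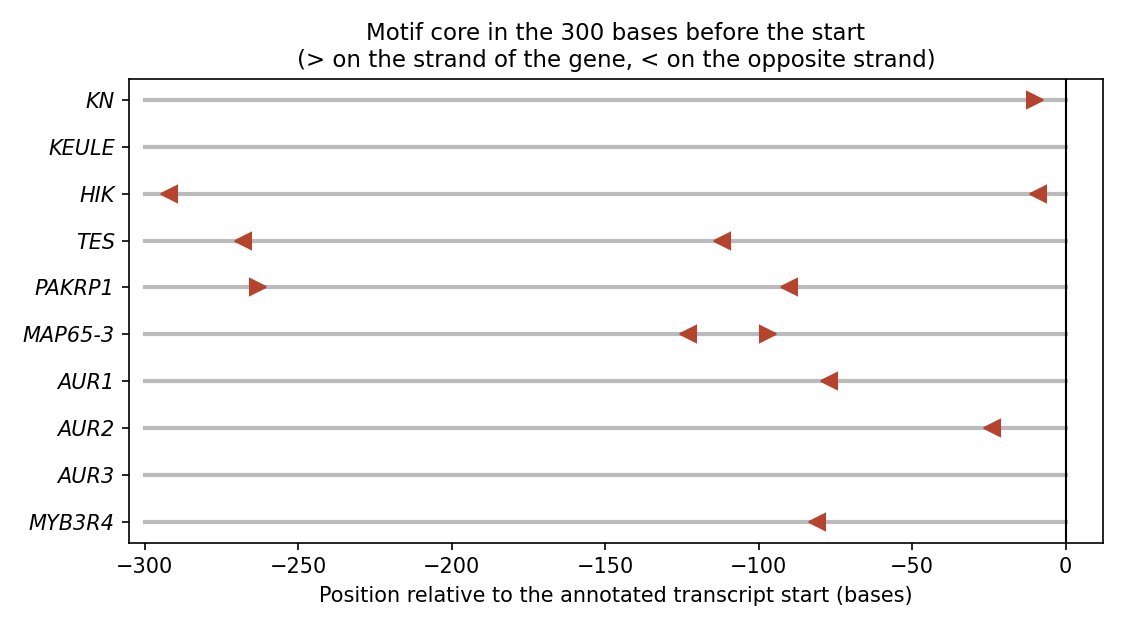
Position of each AACGG core in the 300 bases before the annotated transcript start, 1 line per gene, with distance in bases on the horizontal axis. Arrowheads point right for the strand of the gene and left for the opposite strand; KEULE and AUR3 have none, and 4 genes have 2.

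The libraries were scaled to about 16400000 reads for GmPSKγ1 and 15300000 for the control, as read from the steps between low FPKM values. Of the genes that mark seed tissues, those of the seed coat (TT10, BAN and MUM4) had 91.1 to 682 FPKM and embryo regulators (LEC1, FUS3 and ABI3) had 15.2 to 249 FPKM. These genes did not share 1 direction: the FPKM ratio, with its 95% counting interval, was 1.29 (1.21 to 1.37) for BAN and 0.875 (0.859 to 0.892) for TT10, and it was 1.03 (0.995 to 1.07) for MUM4. It was 1.26 (1.06 to 1.51) for LEC1, 1.06 (1.02 to 1.10) for FUS3 and 0.981 (0.942 to 1.02) for ABI3. The ratios of BAN and LEC1 lie in the range of those of the members. Of 4 endosperm genes, ZOU had 9.74 FPKM in the GmPSKγ1 library and 11.4 FPKM in the control library, AGL62 and FIS2 had at most 1.10 FPKM, and IKU2 was listed at 0 in both. Summed over each list, seed coat genes had 847 and 902 FPKM, embryo regulators 368 and 352 FPKM, endosperm genes 10.98 and 12.9 FPKM, and the pollen genes VGD1 and VGDH1 6.10 and 7.68 FPKM in GmPSKγ1 and control. The part of these tissues in the results below was not tested. Across the 17816 measured genes the median log2 ratio of FPKM + 1, GmPSKγ1 over control, was 0.05. For the division genes, more dividing cells and more RNA per dividing cell cannot be told apart in a pool of whole seeds. With 1 library per genotype, no ratio below can be told apart from differences among plants, lines or library preparations.

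All 10 genes had a higher FPKM in GmPSKγ1 than in the control, as did 57.9% of all measured genes. When the libraries were rescaled to their sums without the 50 most abundant genes, 8 of the 10 were higher, against 45.7% of all measured genes. The differences were small. The median log2 ratio was 0.27, or 1.21-fold, and members ranged from 0.06 for MAP65-3 to 0.62 for AUR1. A log2 ratio of at least 0.32 was found for 5 members (AUR1, HIK, AUR2, KN and AUR3), against 13.9% of measured genes. That count was 2 members against 7.06% with a pseudocount of 5, 3 against 10.6% after rescaling to the median ratio, and 2 against 9.30% after rescaling without the 50 most abundant genes. A ratio of FPKM + 1 of at least 1.5-fold was reached by AUR1 alone, against 3.13% of measured genes, and by no member under those 3 settings. No member had a log2 ratio of -0.32 or below, as 8.19% of measured genes did, or was 1.5-fold lower, as 2.68% were. All 10 lay above the median ratio of measured genes, above which 50% lie by construction. Since the members were chosen with earlier results of these data known, these counts describe the 2 libraries only.

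**Figure D2:**
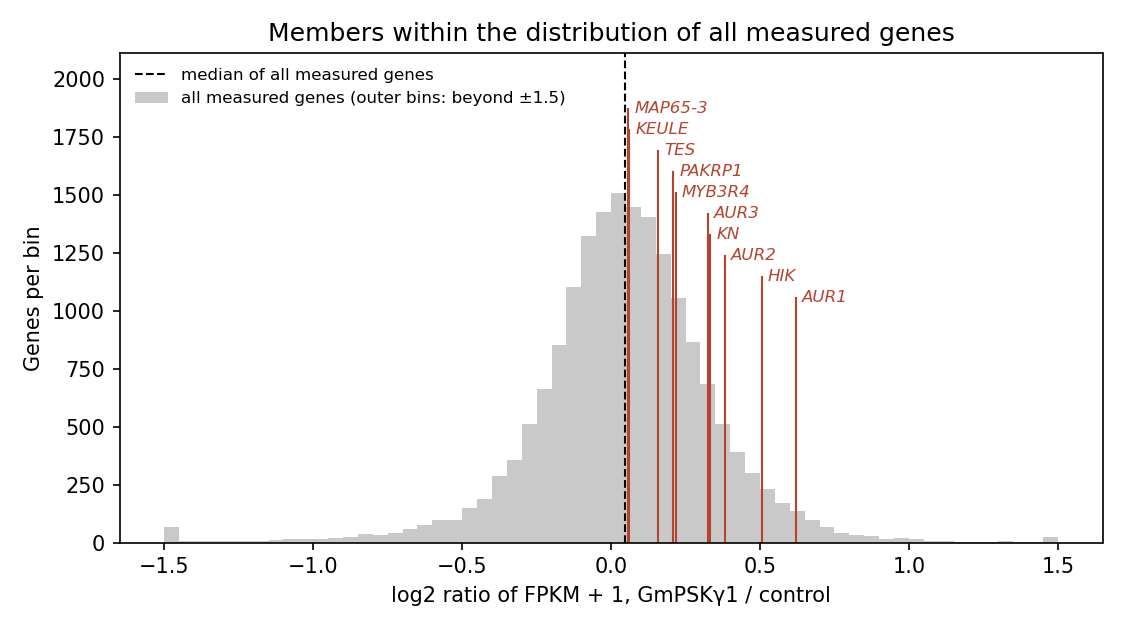
Histogram of the log2 ratio of FPKM + 1 (GmPSKγ1 over control) over the 17816 measured genes, in genes per bin, with the 10 members as labelled lines. The members lie between 0.06 and 0.62, to the right of the dashed median of 0.05; KEULE and MAP65-3 fall below 0 when the libraries are rescaled without the 50 most abundant genes.

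KN and KEULE, the pair that acts in membrane fusion, differed in their ratios. KN (AT1G08560; TAIR10 chromosome 1, 2709632 to 2710912; 2 exons, counted for each member in 1 reference transcript) was the most abundant member, with 121 FPKM on 2366 reads in the GmPSKγ1 library and 96.0 FPKM on 1750 reads in the control. The ratio was 1.26, with an exact (Clopper-Pearson) 95% counting interval of 1.19 to 1.34, and 87.0% of measured genes had a lower log2 ratio. Such an interval holds counting error alone; differences among plants, lines and library preparations lie outside it. In the reference, exons of AT1G08550 on the other strand cover 30.0% of KN's exonic bases, and that gene had 9.73 and 8.80 FPKM. Whether reads were assigned by strand is not given in the sources used here.

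KEULE (AT1G12360; chromosome 1, 4200876 to 4206404; 21 exons) had 28.9 FPKM on 1210 reads in the GmPSKγ1 library and 27.6 FPKM on 1082 reads in the control. Its ratio of 1.04 had a counting interval of 0.962 to 1.13, which includes 1, and did not overlap that of KN. KEULE stood at 0.238 of the FPKM of KN in GmPSKγ1 and at 0.288 in the control. The listed model of KEULE overlaps that of AT1G12370, with which it shares 1.76% of its exonic bases.

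The kinesins HIK and TES also differed in their ratios between these libraries. HIK (AT1G18370; chromosome 1, 6319650 to 6324222; 15 exons) had 15.0 FPKM on 768 reads in the GmPSKγ1 library and 10.3 FPKM on 491 reads in the control. The ratio of 1.46 (counting interval 1.30 to 1.64) was above that of 95.1% of measured genes on the log2 scale. TES (AT3G43210; chromosome 3, 15190934 to 15196168; 15 exons), best known for its part in cytokinesis after male meiosis, had 10.3 FPKM on 538 reads and 9.10 FPKM on 445 reads. Its ratio of 1.13 (interval 0.994 to 1.28) did not exceed counting error. The intervals of HIK and TES did not overlap, though their ends lay close (1.30 for HIK and 1.28 for TES). They hold counting error alone. How often pairs of measured genes fail to overlap was not computed, for these genes or for the other pairs compared. HIK had 1.46 times the FPKM of TES in GmPSKγ1 and 1.13 times in the control. The coding sequences of HIK and TES were identical at 64.3% of aligned positions, and no 50-base window of either transcript occurred in another gene's transcripts.

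Transcripts of the other members that act in the phragmoplast midzone had ratios whose counting intervals include 1. MAP65-3 (AT5G51600; chromosome 5, 20960911 to 20964484; 12 exons) had 17.4 FPKM on 728 reads in the GmPSKγ1 library and 16.7 FPKM on 652 reads in the control, a ratio of 1.04 (interval 0.937 to 1.16). PAKRP1 (AT4G14150; chromosome 4, 8158572 to 8165008; 16 exons) was the least abundant member, at 3.54 FPKM on 229 reads and 2.93 FPKM on 177 reads. Its ratio of 1.21 had an interval of 0.989 to 1.48. The interval of MAP65-3 lay wholly below that of HIK, while that of PAKRP1 overlapped it.

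The 3 Aurora kinase genes each had a higher FPKM in GmPSKγ1, as did 57.9% of all measured genes. They kept that direction under every scaling tried. AUR1 (AT4G32830; chromosome 4, 15842453 to 15844536; 9 exons) had 31.3 FPKM on 601 reads against 20.02 FPKM on 359 reads in the control. Its ratio of 1.56 (interval 1.37 to 1.79) was the highest of the members and above that of 97.4% of measured genes on the log2 scale. AUR2 (AT2G25880; chromosome 2, 11034652 to 11036910; 9 exons) had 16.9 FPKM in the GmPSKγ1 library and 12.8 FPKM in the control library, on approximately 329 and 232 reads, a ratio of 1.33 (interval 1.12 to 1.57). AUR3 (AT2G45490; chromosome 2, 18747639 to 18749075; 6 exons) had 7.39 FPKM on 111 reads against 5.70 FPKM on 80 reads. The ratio of 1.30 for AUR3 had the widest interval of the members, 0.964 to 1.75, which includes 1.

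The counting intervals of the 3 Aurora ratios overlapped one another. AUR1 made up 56.3% of the summed Aurora FPKM in GmPSKγ1 and 52.0% in the control, and AUR3 13.3% and 14.8%. The coding sequences of AUR1 and AUR2 were identical at 82.8% of aligned positions, and those of AUR1 and AUR3 at 65.3%. No 50-base window of an Aurora reference transcript occurred in a gene at another locus. Genes that overlap them on the other strand did share windows: AT4G32840 held 16.5% of those of AUR1, and AT2G45480 held 4.50% of those of AUR3. Within the deposited models of AUR1 and AUR3, 0 exonic bases lie in exons of these genes. AT4G32840 had 11.5 FPKM in the GmPSKγ1 library and 16.0 FPKM in the control library, and AT2G45480 had 13.1 and 11.9 FPKM. On its 5′ side AUR2 adjoins the oleosin gene AT2G25890, which lies on the other strand. Among the 4 RefSeq transcripts of AUR2, 2 reach position 11038191 (TAIR10.1) and run through that gene; the deposited AUR2 model ends before it. AT2G25890 had 42.7 FPKM in the GmPSKγ1 library and 30.9 FPKM in the control library.

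MYB3R4 (AT5G11510; chromosome 5, 3679808 to 3684877; 12 exons) had 4.07 FPKM in the GmPSKγ1 library and 3.36 FPKM in the control library, on approximately 232 and 179 reads. Its ratio was 1.21, with an interval of 0.992 to 1.48 that includes 1. Thus 4 of the 10 members (AUR1, HIK, AUR2 and KN) had counting intervals wholly above 1, against 23.6% of measured genes. The same 4 were wholly above 1.04, the median FPKM ratio of measured genes, against 18.1% of measured genes. Genes with more reads pass such a bound more easily.

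**Figure D3:**
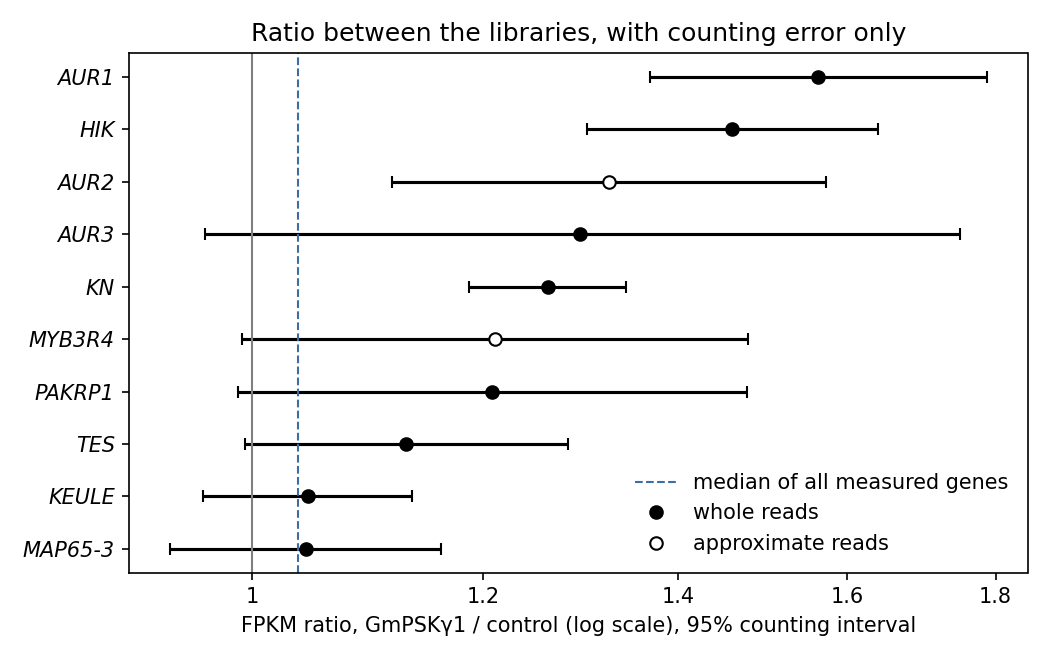
FPKM ratio of GmPSKγ1 to control for each member on a log axis, with 95% counting intervals as bars; filled points rest on whole reads and open points (AUR2 and MYB3R4) on approximate ones. AUR1, HIK, AUR2 and KN lie wholly to the right of the line at 1, and the intervals of all other members include 1. The ratios of MAP65-3 and KEULE fall below 1 after rescaling without the 50 most abundant genes.

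Levels per length spanned 34.3-fold among the members in GmPSKγ1 and 32.8-fold in the control. KN alone took 47.3% of their summed FPKM in GmPSKγ1 and 46.9% in the control, and stood apart from the next gene in both. In GmPSKγ1 the descending order was KN, AUR1, KEULE, MAP65-3, AUR2, HIK, TES, AUR3, MYB3R4 and PAKRP1. Within that order AUR1 and KEULE, MAP65-3 and AUR2, AUR2 and HIK, and MYB3R4 and PAKRP1 had overlapping counting intervals. In the control KEULE preceded AUR1, and the rest of the order was the same. There AUR1 and MAP65-3, AUR2 and HIK, HIK and TES, and MYB3R4 and PAKRP1 overlapped in this way. The change of place concerned AUR1, whose interval in the control lay below that of KEULE and in GmPSKγ1 overlapped it.

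**Figure D4:**
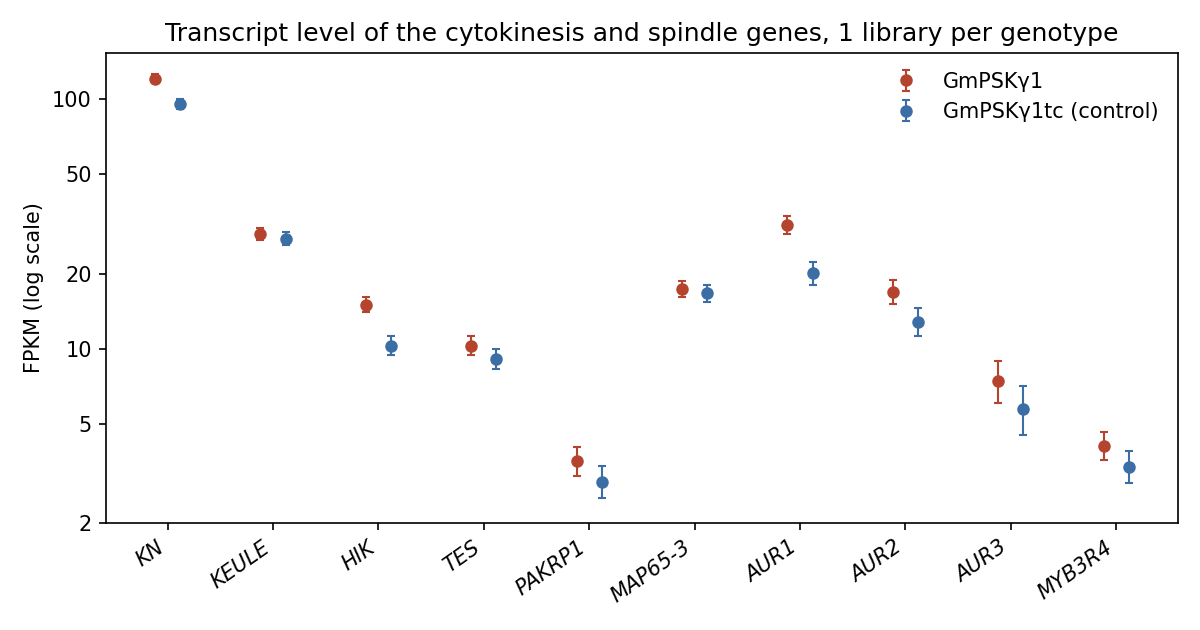
FPKM of the 10 members (log axis) in the GmPSKγ1 library and the control library, 1 library each, with bars for 95% counting intervals. KN lies near 100 FPKM in both, the other members between 2.93 and 31.3 FPKM; every GmPSKγ1 point is above its control point as deposited, but not those of KEULE and MAP65-3 after rescaling without the 50 most abundant genes.

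The ratios were set beside those of 59 other genes of cytokinesis and mitosis in 8 lists, of which 57 had a mean of at least 1 FPKM. Of these 43 were higher in GmPSKγ1 and 14 lower, against 57.9% of all measured genes higher, with a median log2 ratio of 0.21. With the 50 most abundant genes left out of the scaling, 38 were higher, against 45.7% of all, and SYP71, DRP1E, MAP65-1, WYR and TON2 turned lower. A log2 ratio of at least 0.32 was found for 12, against 13.9% of all. None reached the lower threshold of -0.322, against 8.19%, though GSL8 missed it narrowly at -0.317. On FPKM itself, GSL8 had a ratio of 0.792 and MAP65-5 one of 0.778. The count of lower genes was made at the deposited scaling alone. A ratio of at least 1.5-fold was reached by 2 on FPKM + 1 (AT4G39630 and EB1C), against 3.13% of all, and by 4 on FPKM itself (with MAP65-7 and ANP3), against 5.64%. Counting intervals lay wholly above 1 for 25, against 23.6% of all, and wholly below 1 for 4, against 14.2%. Models of 12 of the 59 overlap another listed model, so their values are uncertain.

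The highest ratios were those of AT4G39630, with 6.45 FPKM on 104 reads in the GmPSKγ1 library and 3.45 FPKM on 52 reads in the control (ratio interval 1.33 to 2.66), and of EB1C. AT4G39630 was placed in the list of Aurora partners and spindle assembly under the name BORR, which the reference does not give it. The reference annotates it as a translation initiation factor. EB1C, a microtubule end-binding protein of the spindle, had 31.3 against 19.9 FPKM (interval 1.38 to 1.79). TPX2, a spindle assembly factor that activates AUR1, had 9.50 FPKM in the GmPSKγ1 library and 8.09 FPKM in the control library, with an interval of 1.01 to 1.37. WYR, the inner centromere protein that partners Aurora kinases, had 3.73 and 3.67 FPKM. In that list 6 of 9 genes were higher, against 57.9% of all measured genes, and 5 after the rescaling, against 45.7%. The median was 0.21. CLASP, which stabilises microtubule plus ends, was lower in GmPSKγ1 at 22.1 against 25.7 FPKM (interval 0.805 to 0.918).

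The list of the MAP kinase pathway downstream of HIK and TES held 5 genes of the cascade and 2 kinases with ARM repeats that act in cytokinesis, RUK and FU. All 7 had the higher value in GmPSKγ1, as did 57.9% of all measured genes, and the median log2 ratio of the 7 was 0.31. ANP3, a MAP kinase kinase kinase of cytokinesis, had 21.7 FPKM in the GmPSKγ1 library and 14.4 FPKM in the control library (ratio interval 1.34 to 1.68). MKK6, the next kinase of the cascade, had 23.9 against 19.2 FPKM (interval 1.09 to 1.43). MPK4, the MAP kinase at its end, was the most abundant at 33.5 against 31.2 FPKM, with an interval of 0.969 to 1.19. ANP1 and ANP2 had 3.36 against 2.59 FPKM and 2.68 against 2.39 FPKM, both with intervals that include 1. The model of ANP1 overlaps another. RUK had 5.76 against 4.14 FPKM (interval 1.19 to 1.63) and FU 5.13 against 3.95 FPKM (interval 1.10 to 1.54).

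Kinesins of the phragmoplast and spindle were higher in 7 of 7 cases too, against 57.9% of all measured genes, with a median of 0.30. PAKRP1L, the paralog of PAKRP1, had 4.75 FPKM in the GmPSKγ1 library and 3.24 FPKM in the control library, with an interval of 1.23 to 1.75 that overlaps that of PAKRP1. AT4G14330, the most abundant of the list, had 14.5 against 11.6 FPKM. Genes of the spindle checkpoint and kinetochore were higher in 8 of 8 cases, against the same 57.9%, with a median of 0.26. The most abundant, CDC20.1, which activates the ubiquitin ligase that ends mitosis, had 58.7 against 45.7 FPKM (interval 1.19 to 1.38).

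The genes of cell plate fusion, the step in which KN and KEULE act, showed a mixed picture. Of 11 genes 6 were higher and 5 lower, against 57.9% of all measured genes higher, with a median of 0.03. After the rescaling 4 were higher, against 45.7% of all, and the median was -0.05. As deposited, counting intervals lay wholly above 1 for 3 genes (NPSN11, DRP1A and DRP5A), against 23.6% of measured genes. They lay wholly below 1 for 2 (GSL8 and SCD1), against 14.2%. SEC1A and SEC1B, the relatives of KEULE, had 2.71 against 2.98 FPKM and 4.82 against 4.89 FPKM, both within counting error. SYP71, a syntaxin found at the cell plate and the most abundant of the list, stood at 62.5 and 61.2 FPKM; another listed model overlaps it. The callose synthase gene GSL8 was lowest, at 14.3 FPKM in the GmPSKγ1 library and 18.0 FPKM in the control library (interval 0.738 to 0.850), and another listed model overlaps it. SCD1, named for its part in stomatal cytokinesis, had 12.3 against 13.7 FPKM (interval 0.822 to 0.988).

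Within the MAP65 family, 4 of 6 measured genes were higher, against 57.9% of all, with a median of 0.13. After the rescaling 3 were higher, against 45.7% of all. MAP65-7 had 17.5 FPKM in the GmPSKγ1 library and 11.6 FPKM in the control library (interval 1.34 to 1.70), which lies above that of MAP65-3. MAP65-1 had 44.6 against 43.4 FPKM, within counting error. MAP65-2, the most abundant in GmPSKγ1, had 48.7 against 39.5 FPKM (interval 1.15 to 1.32). MAP65-5 was lowest at 1.74 against 2.24 FPKM, on about 47 and 57 reads, within counting error. Of 5 genes of the division plane 4 were higher (3 after the rescaling), against the same shares of all genes, with a median of 0.23. Counting intervals lay wholly above 1 for 3 of them (TAN, TON1A and TON1B), against 23.6% of measured genes. That of AIR9 lay wholly below 1, as for 14.2% of measured genes. TON2, needed for the preprophase band, had 38.8 against 38.4 FPKM and overlaps another model.

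The relatives of MYB3R4 were each within counting error. MYB3R1, which like MYB3R4 can activate mitotic genes, had 6.09 FPKM in the GmPSKγ1 library and 5.21 FPKM in the control library (interval 0.997 to 1.37). The repressor genes MYB3R3 and MYB3R5 had 7.32 against 7.96 FPKM (interval 0.772 to 1.10) and 2.10 against 2.25 FPKM (interval 0.658 to 1.33). MYB3R2 had 2.71 against 3.21 FPKM (interval 0.603 to 1.17).

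**Figure D5:**
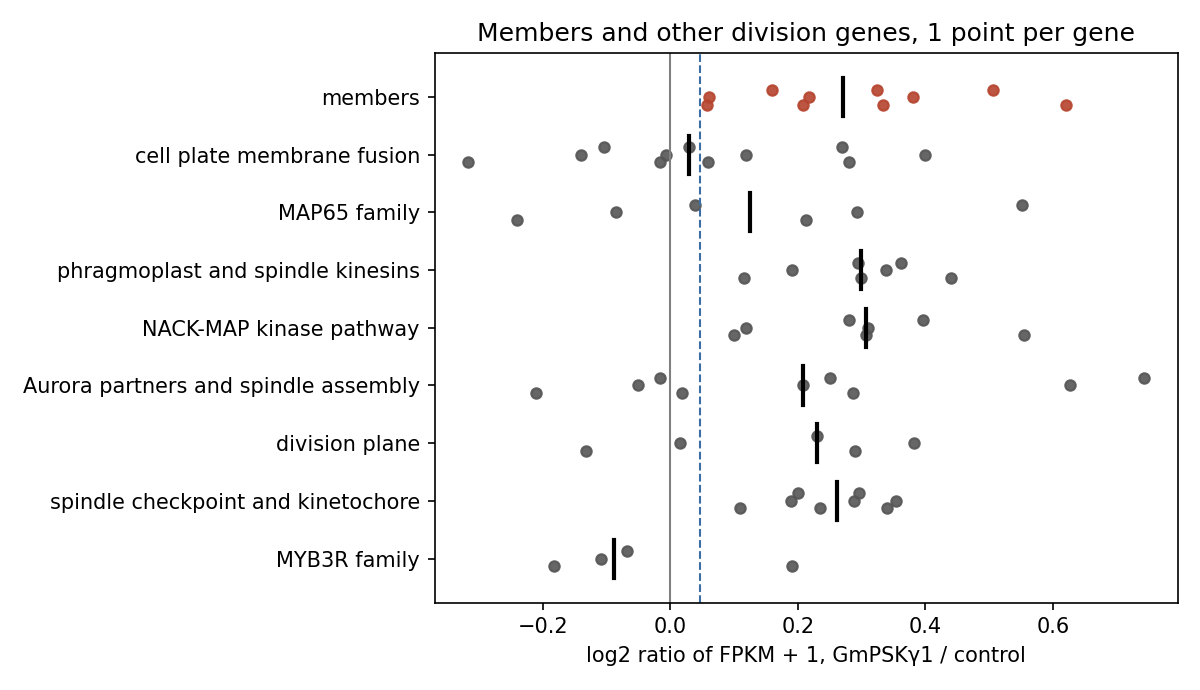
log2 ratio of FPKM + 1 (GmPSKγ1 over control) of each member (top row) and of each measured gene of the 8 other lists, 1 point per gene, with a black bar at each list's median. The dashed line is the median of all measured genes (0.05); the kinesin, MAP kinase pathway and checkpoint lists lie wholly to its right as deposited, the cell plate and MYB3R lists on both sides.

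The ratios were also set beside the promoter motif. Among all measured genes with a promoter in the reference, the median log2 ratio was 0.06 for 4451 genes with AACGG in the 300 bases and 0.04 for 12792 genes without it. Of these, 60.2% with a site and 57.3% without were higher in GmPSKγ1. Among the 57 other division genes the median was 0.19 for the 23 with a site, of which 17 were higher. It was 0.23 for the 34 without, of which 26 were higher. The members without a site were KEULE, with one of the lowest ratios, and AUR3, with a ratio of 1.30. Those with 2 sites were HIK (ratio 1.46), PAKRP1 (1.21), TES (1.13) and MAP65-3, whose ratio of 1.04 was the lowest of the members.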

How the data were processed

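Total RNA of developing seeds was sequenced as 1 library per genotype from RNA pooled over 3 lines, per the labels. FPKM values were computed and deposited by the authors; Bowtie 0.12.2 and genome build TAIR10 were used, per the submitters' processing notes. Not given in the sources used here are the program for FPKM, the annotation release, strand handling and how multi-mapping reads were treated. Gene models were joined by locus tag to RefSeq (TAIR10.1), which matched 32835 of 33602.

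The FPKM × kilobase worth of 1 read was estimated from single-exon genes (0.0610 for GmPSKγ1, 0.0653 for the control). With reference exon lengths inside the deposited ends, below 200 reads, 99.5% of values of single-exon genes came out whole within 0.05 in both libraries, as did 95.2% and 95.7% of those of multi-exon genes with 1 transcript; every member has several exons. For genes with several reference transcripts, the first whose length gave whole reads in both libraries was used. Reads came out whole for 8 of 10 members. They are approximate for AUR2 and MYB3R4, for which no reference transcript gave whole reads. Reads carry no molecular identifiers, so PCR copies count as reads. Ratios are log2 of FPKM + 1, which understates differences of low genes; the minimum was a mean FPKM of 1, and the thresholds were a log2 ratio of 0.32 and a fold of 1.5. Settings varied were the pseudocount (0.1 and 5), the minimum (none and 5) and the scaling (3 ways). Steps, ratios and intervals were tested on simulated data. Python 3.11.15, SciPy 1.17.1 and Biopython 1.88 were used.

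The members and lists were chosen with earlier results of these data known. Named genes were all members, the 5 highest and 5 lowest of the other lists, the most abundant of each list, and direct paralogs or partners. RUK, FU, NPSN11, DRP1A, DRP5A, TAN, TON1A, TON1B and AIR9 were named after their values were seen. AT2G25890, AT1G08550, AT1G12370, AT4G32840 and AT2G45480 were named for their position. Of 59 names, 50 matched the reference; other genes keep its symbol or identifier. Coding sequences were aligned in place of the proteins planned.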

Additional observations from a re-analysis of the deposited data

How the results depend on the processing

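Under 7 alternative settings, the direction of each member's difference was kept except for KEULE and MAP65-3, whose log2 ratios became -0.018 and -0.020 when the libraries were rescaled without the 50 most abundant genes. The number of members with a log2 ratio of at least 0.32 was 2 with a pseudocount of 5, 3 after rescaling to the median ratio and 2 after rescaling without the 50 most abundant genes, where 7.06%, 10.6% and 9.30% of all measured genes passed. The number at least 1.5-fold higher was 0 under each of those 3 settings, where 0.82%, 2.40% and 2.03% of all passed. The members' median log2 ratio ranged from 0.16 with a pseudocount of 5 to 0.33 with a minimum mean of 5 FPKM, which leaves 8 members. It was 0.32 over the 7 members with whole reads and no overlap with another listed model, a choice made after seeing the data. With 250 bases before to 50 after the start, AACGG was in 8 of 10 member promoters, 47.5% of those of the other division genes and 24.8% of all. No paired analysis was possible because each genotype is 1 library, so no replicate could be left out either. AUR3, with 111 and 80 reads, is the member whose ratio depth limits most.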
